A study of Mus musculus and Homo sapiens with 59 samples.

Results

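The NF-kB inhibitors and feedback genes are 7 genes whose products restrain or reshape NF-kB signalling: Nfkbia, Nfkbib, Nfkbie, Nfkbiz, Tnfaip3, Tnip1 and Bcl3. They were chosen by name for their known roles, but with earlier results of these data known, so the choice supports nothing by itself. All 7 were found among the 19407 genes of the mouse table and, in upper case, among the 22192 genes of the human table. NF-kB dimers are held in the cytoplasm by the classical inhibitors IkB-alpha (Nfkbia), IkB-beta (Nfkbib) and IkB-epsilon (Nfkbie), which are destroyed when the IKK kinases phosphorylate them, so that the freed dimers enter the nucleus. Nfkbia and Tnfaip3 are textbook NF-kB target genes: resynthesised IkB-alpha captures nuclear NF-kB, and A20, the ubiquitin-editing enzyme encoded by Tnfaip3, shuts down signalling upstream of IKK together with its partner ABIN-1 (Tnip1). Nfkbiz (IkB-zeta) and Bcl3 encode nuclear IkB proteins that act on NF-kB already bound to DNA and can activate or repress its targets.

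The series measured polyA-selected RNA in 59 libraries of 30 groups: cells whose plasma membrane was to be opened by a pore-forming protein or a detergent, parental cells given the drug alone, and untreated cells. All cells were grown in DMEM, and each treated group had untreated cells of its own kind. In NIH3T3 mouse fibroblasts, AP20187 at 100 nM for 1 h was given to cells carrying hMLKL1–181-2Fv, a piece of the human necroptosis protein MLKL fused to a domain that the drug dimerizes, and to parental cells without a construct. The MLKL cells were also treated in DMEM without Ca2+, and further MLKL cells are labelled siCTR and siPKC, or noko and p65ko. 4OHT at 50 nM for 2.5 h was given to NIH3T3 cells carrying mGSDMD1-276-HBD, a piece of the pyroptosis protein gasdermin D fused to a hormone-binding domain, and digitonin, a detergent, at 55 µg/mL for 3 h to NIH3T3 cells. In LLC mouse lung carcinoma cells the groups were MLKL cells with AP20187, GSDMD cells and parental cells with 4OHT, and digitonin at 55 µg/mL for 3 h. HT29 human colorectal and BxPC3 human pancreatic carcinoma cells received digitonin at 40 µg/mL for 2 h. There were 35 NIH3T3, 16 LLC, 4 HT29 and 4 BxPC3 libraries, 2 in each of 29 groups and 1 in the siPKC AP20187 group, and the labels say neither whether a line is 1 clone nor which promoter drives a construct.

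Values are TPM, a relative abundance that corrects for transcript length but keeps no sequencing depth, so the depth behind each value is unknown. Replicate libraries of a group correlated at r = 0.986 to 0.995 over genes, and since no label names separate cultures, the p-values reflect spread among these libraries alone, and that spread may be technical. Rela, the gene of p65, averaged 13.8 ± 0.343 TPM in untreated p65ko cells and 49.4 ± 0.371 TPM in untreated noko cells, and Prkca averaged 7.75 ± 0.419 TPM in untreated siPKC cells and 31.8 ± 1.24 TPM in untreated siCTR cells (SD, n = 2 each). Gsdmd stood at 1182 ± 67.7 TPM in untreated NIH3T3 GSDMD cells and 5.79 TPM in untreated NIH3T3 parental cells, while the construct of the MLKL cells is human and has no check in the mouse table. The 4 LLC libraries of the digitonin experiment are labelled as having no construct, yet Gsdmd averaged 331 ± 6.82 TPM with digitonin and 335 ± 2.57 TPM without, beside 376 ± 0.755 TPM in untreated LLC GSDMD cells and 22.6 TPM in untreated LLC parental cells. They are called the libraries labelled LLC digitonin here, and counts over arms are given with and without them. NIH3T3 cells had 6 of 6 fibroblast markers at a mean of 1 TPM or more. They also had 1 of 5 epithelial markers, Krt8 at 1.25 TPM. LLC cells had 3 of 5 epithelial markers, with Epcam and Cdh1 below that level, and 2 of 6 fibroblast markers, Col3a1 and Fn1. In LLC libraries the epithelial markers summed to 291 to 543 TPM and the fibroblast markers to 180 to 488 TPM, with Thy1 at 0. HT29 and BxPC3 cells each had 5 of 5 epithelial markers. HT29 had 2 of 3 intestinal markers, with CDX2 below 1 TPM, and both pancreatic duct markers at a sum of 4.24 to 5.71 TPM, while BxPC3 had no intestinal marker, both duct markers at 1007 to 1649 TPM, and 2 of 6 fibroblast markers, COL1A1 and FN1, at about 5 TPM each. Of the leukocyte markers, Cd68 (CD68) reached 1 TPM in all 4 lines and Lyz2 in NIH3T3 cells, while Ptprc (PTPRC) and Adgre1 (ADGRE1) did not in any line. In such bulk libraries fewer cells of a type and less RNA per cell cannot be told apart.

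The promoters are shown because 5 of the 6 members present in the RefSeq promoter table for mouse GRCm38.p6 hold a match to the kB consensus, the sequence that NF-kB dimers bind, and because those 5 genes did not respond alike. The search used the kB consensus of 10 letters on both strands, over 250 bases before and 50 bases after each gene start listed by RefSeq. Of 32851 promoters of that length, 8.46% held a match. Capitals mark the matched bases, all sequences read 5′ to 3′ on the gene's strand, and a match is a description of letters and not a bound site. The stretch before Nfkbia, chr12:55492648-55492897 on the minus strand, has its match 29 bases before the gene start. The stretch before Tnip1, chr11:54962941-54963190 on the minus strand, holds 3 overlapping matches in a palindrome of 12 letters.
Nfkbia: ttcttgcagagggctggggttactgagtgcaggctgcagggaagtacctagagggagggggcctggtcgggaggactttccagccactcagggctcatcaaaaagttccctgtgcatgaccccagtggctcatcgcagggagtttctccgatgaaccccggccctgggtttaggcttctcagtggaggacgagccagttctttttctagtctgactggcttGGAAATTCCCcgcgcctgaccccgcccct
Tnip1: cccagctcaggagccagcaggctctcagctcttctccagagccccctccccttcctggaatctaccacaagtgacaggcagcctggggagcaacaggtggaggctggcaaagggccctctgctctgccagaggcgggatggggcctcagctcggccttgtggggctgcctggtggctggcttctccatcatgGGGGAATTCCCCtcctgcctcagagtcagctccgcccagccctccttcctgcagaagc
Shorter windows of 30 bases carry the matches of the other members. They lie at chr17:45555584-45555613 on the plus strand for Nfkbie, at chr10:19015516-19015545 and chr10:19015403-19015432 on the minus strand for Tnfaip3, whose matches begin 125 and 12 bases before the start, and at chr7:19822734-19822763 on the minus strand for Bcl3, whose match begins 3 bases after the start.
Nfkbie: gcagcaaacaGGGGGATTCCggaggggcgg
Tnfaip3, upstream: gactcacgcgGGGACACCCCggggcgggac
Tnfaip3, nearer the start: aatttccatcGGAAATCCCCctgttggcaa
Bcl3: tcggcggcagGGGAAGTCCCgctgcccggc
No match was found in the window of Nfkbib or in a second promoter listed for Tnfaip3 (chr10:19011914-19012213), and Nfkbiz was not among the promoters used here.

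In mm10 the genes lie at chr12:55489410-55492647 (Nfkbia), chr7:28758251-28767512 (Nfkbib), chr17:45555703-45563169 (Nfkbie), chr16:55811375-55838899 (Nfkbiz), chr10:19000910-19015657 (Tnfaip3), chr11:54910785-54962917 (Tnip1) and chr7:19808462-19822770 (Bcl3) in the GENCODE vM21 annotation. Some of these gene ends differ from the RefSeq starts used for the promoters. The Nfkbib window (chr7:28766595-28766894) and both Tnfaip3 matches lie inside the spans given here. For Nfkbib, the stretch before the 5′ end of its span was therefore not searched. Nfkbib overlaps Ccer2 and Sirt2 on the other strand, Bcl3 overlaps the antisense genes Gm16175 and Gm16174, and Tnip1 overlaps the pseudogene Gm12230. Their values are uncertain to the extent that such reads were shared, since the strandedness of the quantification is not given in the sources used here.

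Before treatment the 7 genes differed widely in level. In untreated mouse groups Nfkbia averaged 32.2 to 53.8 TPM, Nfkbib 17.4 to 36.9 TPM and Tnip1 13.4 to 23.0 TPM. The inducible nuclear inhibitor Nfkbiz averaged 3.22 to 8.46 TPM, Bcl3 0.856 to 4.95 TPM and Tnfaip3 0.676 to 2.65 TPM in the same groups. Nfkbia was thus the highest of the 7 in untreated NIH3T3 cells, and Tnfaip3 was close to the 1 TPM that a gene had to reach in 2 libraries to be tested.

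Opening the membrane of NIH3T3 MLKL cells with AP20187 was followed by higher levels of Nfkbia, Nfkbiz and Tnfaip3, while the other 4 members did not pass the test. Nfkbia read 244 and 255 TPM in the AP20187 libraries, against 46.9 and 46.8 TPM in the untreated libraries. Nfkbiz read 45.8 and 47.4 TPM with AP20187, against 3.17 and 3.27 TPM untreated. Tnfaip3 read 13.1 and 13.3 TPM with AP20187, against 0.639 and 0.714 TPM untreated. For all 3 genes both treated libraries lay far above both untreated ones, and replicates lay close together. The mean TPM ratio was 5.32 for Nfkbia, 14.5 for Nfkbiz and 19.5 for Tnfaip3, whose untreated libraries were below 1 TPM, so that it entered the test through the treated libraries alone and could not be tested without either of them. On the log2(TPM + 1) scale, which understates changes of low genes, Nfkbia rose by 2.39 (SE 0.03; limma, Benjamini-Hochberg adjusted p = 1.3e-22). Nfkbiz rose by 3.49 (SE 0.10; limma adjusted p = 1.75e-17). Tnfaip3 rose by 3.08 (SE 0.10), given without a p because it entered the test through the libraries where it is high. The count of 3 of 7 members higher, which includes Tnfaip3, stands beside 15.8% of all 11644 genes tested.

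The remaining members of the same cells gave smaller and uncertain differences. Nfkbib averaged 19.8 ± 0.315 TPM with AP20187 and 18.3 ± 1.31 TPM untreated (SD, n = 2 each), a log2 difference of 0.11 (95% interval -0.09 to 0.31). Nfkbie read 1.98 and 2.23 TPM with AP20187, against 1.73 and 2.4 TPM untreated, and these libraries overlapped. Tnip1 averaged 17.7 ± 1.99 TPM with AP20187 and 19.8 ± 0.177 TPM untreated, with limma adjusted p = 0.0805, and would be called lower without AP20187 replicate 2 (-0.27, adjusted p = 0.00943). Bcl3 averaged 0.903 ± 0.0389 TPM with AP20187 and 1.15 ± 0.0281 TPM untreated, with limma adjusted p = 0.476. By limma 0 members were lower, beside 16.5% of all genes, and at an unadjusted p under 0.05 Tnip1 alone was. For the members' other counts of 0 in a direction in a single comparison below, the count at an unadjusted p under 0.05 was also 0.

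The MLKL cells labelled siCTR and noko, which are the controls of the siPKC and p65ko cells, had higher Nfkbia, Nfkbiz, Tnfaip3 and also Nfkbib with AP20187. In siCTR cells Nfkbia read 134 and 139 TPM with AP20187, against 35.5 and 34.0 TPM untreated, and in noko cells it read 240 and 238 TPM with AP20187, against 34.2 and 33.5 TPM untreated. Nfkbiz averaged 55.2 TPM in noko AP20187 libraries and 6.18 TPM in untreated ones, a ratio of 8.93, and the ratio in siCTR cells was 6.49. Tnfaip3 averaged 6.77 ± 0.421 TPM in siCTR AP20187 libraries and 1.84 ± 0.0331 TPM in untreated ones, a ratio of 3.67, and the ratio in noko cells was 9.89. The treated and untreated libraries of these genes did not overlap in either kind of cell. Nfkbib rose by 0.63 on the log2 scale in siCTR cells (limma adjusted p = 6.34e-06) and by 0.63 in noko cells (limma adjusted p = 6.75e-06), where its TPM ratio was 1.58 in each. Thus 4 of 7 members were higher and 0 lower in each arm. In siCTR cells 13.7% of genes were higher (28.0% after centring each library on its median) and 51.8% lower (27.1% after centring), and in noko cells 10.6% were higher (27.6% after centring) and 55.5% lower (23.3% after centring). The median over all genes was -0.19 in siCTR cells and -0.22 in noko cells, so each of these 4 genes moved further from the other genes than its own log2 value states. Nfkbie, Tnip1 and Bcl3 did not pass in either arm, with limma adjusted p of 0.0595 for Nfkbie in noko cells, and the levels of Tnip1 were 14.5 ± 0.902 TPM with AP20187 and 15.9 ± 0.114 TPM untreated there. After centring, Nfkbie passed in both (0.42 in siCTR and 0.55 in noko cells), as did Tnip1 in siCTR cells (0.23) and Bcl3 in noko cells (0.48).

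**Figure D1:**
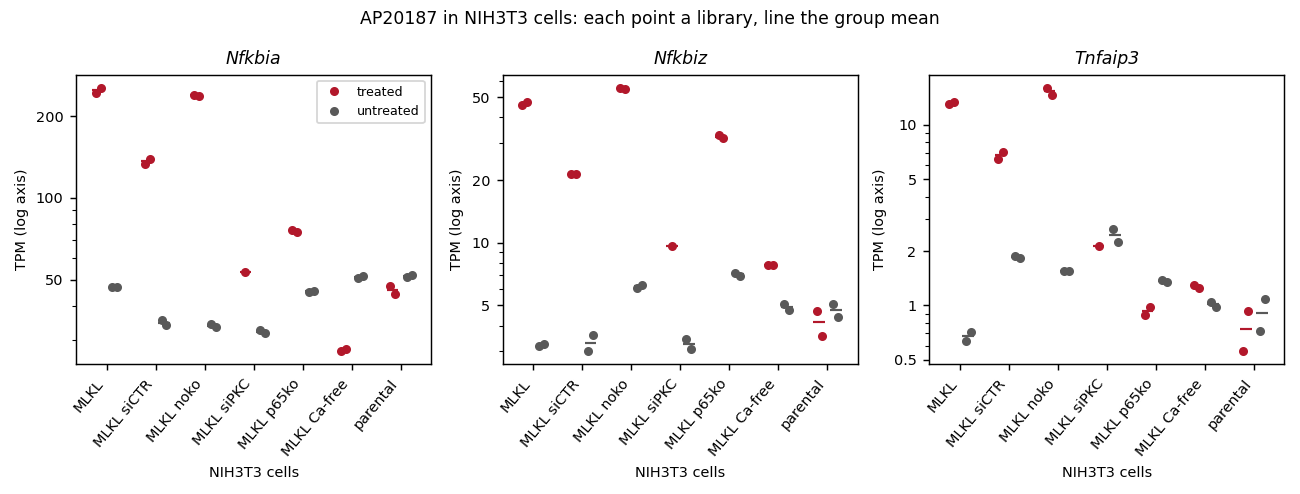
TPM on a log axis of Nfkbia, Nfkbiz and Tnfaip3 in 7 kinds of NIH3T3 cells with AP20187 (red, left) and untreated (grey, right), each point a library and each line a group mean. Nfkbia reached 244 and 255 TPM in MLKL cells with AP20187 and stood at 27.3 and 27.7 TPM in DMEM without Ca2+.

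AP20187 given to parental NIH3T3 cells tests whether the drug alone moves these genes. Nfkbia read 47.3 and 44.2 TPM with AP20187, against 51.2 and 51.9 TPM untreated, a TPM ratio of 0.888, and it was the only one of the 6 members tested to pass the threshold (log2 difference -0.17, limma adjusted p = 0.0335). The 2 treated libraries lay below both untreated ones, and this small call was lost after centring, after quantile scaling, with the libraries of the comparison alone, and on leaving out AP20187 replicate 2 (adjusted p = 0.755), untreated replicate 1 (0.171) or untreated replicate 2 (0.316). Nfkbiz read 4.71 and 3.57 TPM with AP20187, against 5.10 and 4.4 TPM untreated, with overlapping libraries. Tnfaip3 read 0.559 and 0.928 TPM with AP20187, against 0.719 and 1.09 TPM untreated, and was too low to be tested there. Of all genes tested, 0.0174% were higher and 0.287% lower. The response of MLKL cells minus that of parental cells was 2.56 for Nfkbia (SE 0.05; limma adjusted p = 4.47e-20) and 3.66 for Nfkbiz (limma adjusted p = 9.07e-15), with 12.4% of genes higher (11.1% after centring) and 8.10% lower (11.7% after centring) in that difference. For Tnfaip3 it was 3.21, given without a p because the gene entered this difference through the MLKL AP20187 libraries, where it is high. The intervals for the other 4 members spanned 0, for example -0.22 to 0.34 for Nfkbib.

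In DMEM without Ca2+ the response of the 3 inducible genes to AP20187 was smaller or turned. Nfkbia read 27.3 and 27.7 TPM in Ca2+-free AP20187 libraries, against 50.7 and 51.4 TPM in Ca2+-free untreated libraries. The treated libraries thus lay below the untreated ones, and Nfkbia fell by 0.87 on the log2 scale (limma adjusted p = 5.39e-13), a TPM ratio of 0.539. Nfkbiz read 7.77 and 7.82 TPM with AP20187, against 5.07 and 4.73 TPM untreated, and rose by 0.58 (limma adjusted p = 0.00083), a ratio of 1.59. Tnfaip3 read 1.30 and 1.25 TPM with AP20187, against 1.05 and 0.983 TPM untreated, with limma adjusted p = 0.393. The libraries of Tnfaip3 did not overlap, with a gap of 0.257 TPM between the means, against 12.5 TPM in complete medium. Of 6 members tested, 1 was higher, beside 2.27% of genes, and 1 was lower, beside 3.42% of genes, and Bcl3 was too low to be tested. The call of Nfkbiz was lost with the libraries of the comparison alone (adjusted p = 0.0573).

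The test of the difference between media used the MLKL AP20187 and untreated libraries described above a further time. The response without Ca2+ minus the response with Ca2+ was -3.26 for Nfkbia (95% interval -3.36 to -3.15; limma adjusted p = 9.89e-22), -2.92 for Nfkbiz (limma adjusted p = 5.01e-13) and -2.91 for Tnfaip3 (limma adjusted p = 1.84e-12). In this difference 3 of 7 members were lower, beside 11.1% of all genes, and 0 higher, beside 10.8%. Without any AP20187, Ca2+-free cells already differed slightly from cells in complete medium. Nfkbia averaged 51 TPM without Ca2+ and 46.8 TPM with Ca2+ (log2 difference 0.12, limma adjusted p = 0.00893), Nfkbiz 4.90 TPM without and 3.22 TPM with Ca2+ (0.48, limma adjusted p = 0.000513), and Tnip1 15.3 TPM without and 19.8 TPM with Ca2+ (-0.35, limma adjusted p = 0.000256), beside 8.55% of genes higher and 27.7% lower (21.1% and 16.2% after centring). The Nfkbia call was lost without Ca2+-free untreated replicate 2 (adjusted p = 0.0651), and Tnfaip3 was too low to be tested in untreated cells of the 2 media.

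The siPKC cells were compared with siCTR cells to ask whether the response differs between them. Besides lower Prkca, untreated siPKC cells had Prkcd at 39.1 TPM and Prkci at 34.6 TPM, against 25.7 and 46.1 TPM in untreated siCTR cells. The single siPKC AP20187 library is assumed to vary like the other groups. Nfkbia read 53.2 TPM in that library, against 32.6 and 31.7 TPM in untreated siPKC libraries. Nfkbiz read 9.66 TPM with AP20187, against 3.44 and 3.08 TPM untreated. Tnfaip3 read 2.12 TPM with AP20187, below the 2.63 and 2.25 TPM of untreated siPKC libraries. Nfkbia rose by 0.71 on the log2 scale (limma adjusted p = 1.87e-11) and Nfkbiz by 1.32 (limma adjusted p = 1.49e-08), while Tnfaip3 did not pass (limma adjusted p = 0.392). Tnip1 read 15.9 TPM with AP20187, against 23.2 and 22.8 TPM untreated, and fell by 0.51 (limma adjusted p = 3.96e-05). Thus 2 of 5 members tested were higher, beside 10.5% of genes (19.2% after centring), and 1 was lower, beside 37.5% (19.9% after centring), with a median over all genes of -0.14. Nfkbie and Bcl3 were too low to be tested.

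The siPKC response lay below the siCTR response in 4 members by the test of the difference. Among them, Tnip1 changed by only 0.04 in siCTR cells without passing and fell in siPKC cells. Its siPKC response was thus more negative, not smaller. The difference was -1.23 for Nfkbia (limma adjusted p = 4.36e-12), -1.06 for Nfkbiz (limma adjusted p = 0.000164), -1.59 for Tnfaip3 (limma adjusted p = 2.37e-06) and -0.55 for Tnip1 (limma adjusted p = 0.0028). Over all genes 3.33% were lower (6.88% after centring) and 4.96% higher (2.53% after centring). Nfkbib and Nfkbie lay just outside the threshold, with limma adjusted p of 0.0586 and 0.0504, and passed after centring (-0.54 and -0.81). With the libraries of the comparison alone Nfkbiz (adjusted p = 0.0578) and Tnip1 (0.0635) did not pass. Before AP20187, 3 members already differed between siPKC and siCTR cells. Nfkbia averaged 32.2 TPM in siPKC cells and 34.7 TPM in siCTR cells (-0.11, limma adjusted p = 0.0153), Tnip1 23.0 TPM in siPKC cells and 20.3 TPM in siCTR cells (0.17, limma adjusted p = 0.0423), and Tnfaip3 2.44 TPM in siPKC cells and 1.84 TPM in siCTR cells (0.27, limma adjusted p = 0.0363), beside 23.9% of genes higher and 21.7% lower, and these calls were lost when the model held the libraries of that comparison alone. Tnip1 also lost its call without any 1 of the 4 libraries (adjusted p of 0.0719 to 0.175), Tnfaip3 without 3 of them (up to 0.251) and Nfkbia without 2 (up to 0.154).

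Cells labelled p65ko showed the members parting: Tnfaip3 no longer rose, Nfkbia rose less, and Nfkbiz still rose. Nfkbia read 76.4 and 75.1 TPM with AP20187, against 45.2 and 45.6 TPM untreated, a ratio of 1.67. Nfkbiz read 32.8 and 31.8 TPM with AP20187, against 7.16 and 6.93 TPM untreated, a ratio of 4.59. Tnfaip3 read 0.887 and 0.980 TPM with AP20187, against 1.39 and 1.35 TPM untreated, a ratio of 0.683. Treated libraries of Nfkbia and Nfkbiz lay above the untreated ones and those of Tnfaip3 below. On the log2 scale Nfkbia rose by 0.73 (limma adjusted p = 3.04e-13), Nfkbib by 0.38 (limma adjusted p = 0.002) and Nfkbiz by 2.05 (limma adjusted p = 3.63e-13). Nfkbie fell by 0.53 (limma adjusted p = 0.00326) and Tnip1 by 0.19 (limma adjusted p = 0.0206). Tnfaip3 fell by 0.29 and Bcl3 by 0.51, given without a p because both entered the test through the untreated libraries, where they are higher. The 3 members higher stand beside 8.99% of genes (24.5% after centring) and the 4 lower beside 50.4% (18.9% after centring). The median over all genes was -0.19, and after centring, or after quantile scaling, only Nfkbia, Nfkbib and Nfkbiz passed, with Tnfaip3 at -0.09 and Tnip1 at 0.02 after centring. The Tnfaip3 and Bcl3 calls rest on untreated libraries above 1 TPM and treated libraries below it, and both were lost without AP20187 replicate 1 (adjusted p = 0.102 for Tnfaip3 and 0.0953 for Bcl3). The Tnip1 call was lost without AP20187 replicate 2 (adjusted p = 0.133) or untreated replicate 1 (0.157).

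The test of p65ko minus noko gave, among the 7 members, its most negative values for Tnfaip3 and Nfkbia. The difference was -2.97 for Tnfaip3 (limma adjusted p = 1.78e-11), -2.06 for Nfkbia (limma adjusted p = 4.59e-17), -0.92 for Nfkbiz (limma adjusted p = 0.000343) and -0.85 for Nfkbie (limma adjusted p = 0.018). That is 4 of 7 members lower, beside 1.76% of all genes (2.60% after centring), and 0 higher, beside 2.34% (1.86% after centring). Nfkbib differed by -0.26 with an interval of -0.54 to 0.02, Tnip1 by -0.06 with an interval of -0.26 to 0.14, and Bcl3 by -0.76 with limma adjusted p = 0.0975. Untreated p65ko cells had more Nfkbia than untreated noko cells, at 45.4 and 33.8 TPM (0.41, limma adjusted p = 4.91e-09), and slightly more Tnip1 (0.17, limma adjusted p = 0.0494), beside 31.8% of genes higher (20.5% after centring) and 15.2% lower (23.0% after centring). Nfkbie of the difference lost its call in 5 of 8 fits that left out 1 library (adjusted p up to 0.0907), and the Tnip1 call of untreated cells was lost without any 1 of the 4 libraries and after centring (0.09).

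**Figure D2:**
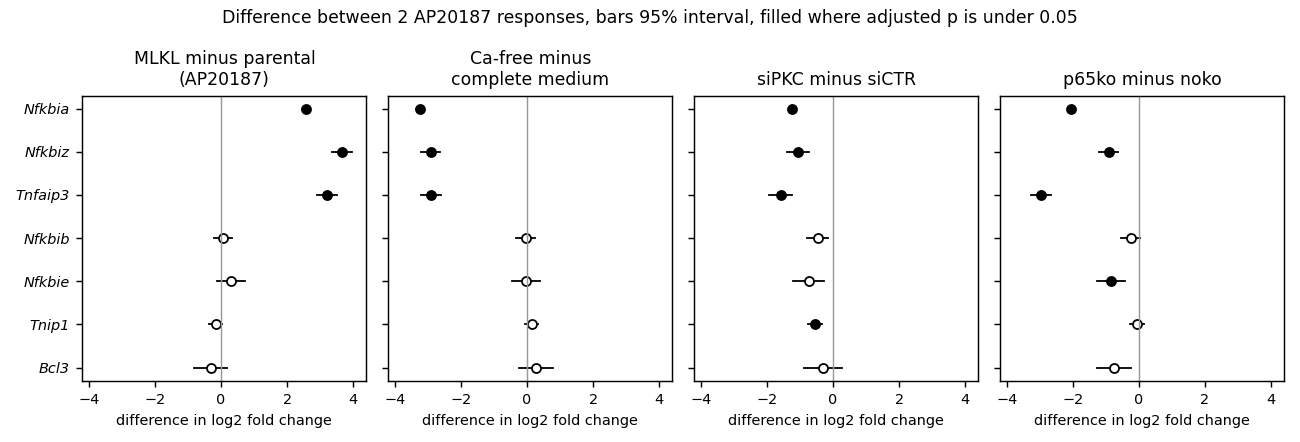
Difference between 2 AP20187 responses in log2 fold change for each member, with 95% intervals and filled points where the adjusted p is under 0.05. Nfkbia, Nfkbiz and Tnfaip3 lie right of 0 for MLKL minus parental and left of 0 for the other 3 differences, with Tnfaip3 at -2.97 and Nfkbiz at -0.92 for p65ko minus noko.

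In NIH3T3 cells opened by the gasdermin D construct, 5 of 7 members were higher with 4OHT, among them all 3 classical inhibitors. Nfkbia read 108 and 107 TPM with 4OHT, against 37.7 and 36.9 TPM untreated, a ratio of 2.88. Nfkbib read 46.4 and 45.5 TPM with 4OHT, against 17.2 and 20.3 TPM untreated, a ratio of 2.45. Nfkbie read 3.10 and 2.07 TPM with 4OHT, against 1.30 and 1.39 TPM untreated, a ratio of 1.92. Treated libraries lay above untreated ones for each inhibitor, with a wide gap between the 2 treated libraries of Nfkbie. Nfkbib rose by 1.25 (limma adjusted p = 1.17e-10), Nfkbia by 1.5 (limma adjusted p = 2.25e-19) and Nfkbie by 0.60 (limma adjusted p = 0.000713) on the log2 scale. Nfkbiz averaged 14.8 TPM with 4OHT and 5.34 TPM untreated (1.32, limma adjusted p = 8.81e-11), and Tnfaip3 9.39 TPM with 4OHT and 2.12 TPM untreated (1.74, limma adjusted p = 2.01e-12). Tnip1 read 16.4 and 17.4 TPM with 4OHT, against 22.1 and 21.3 TPM untreated, and fell by 0.34 (limma adjusted p = 9.99e-05). Higher genes made up 20.0% of all genes (34.7% after centring) and lower ones 58.6% (37.0% after centring), and the median over all genes was -0.29, close to the value of Tnip1. After centring or quantile scaling the difference of Tnip1 was -0.07 and no longer past the threshold. Bcl3 averaged 3.74 ± 0.952 TPM with 4OHT and 4.95 ± 0.672 TPM untreated (limma adjusted p = 0.0766), and passed without 4OHT replicate 2 (-0.55, adjusted p = 0.0184). There is no parental NIH3T3 group with 4OHT among the samples.

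Digitonin, which opens the membrane without a construct, was followed in NIH3T3 cells by higher Nfkbia, Nfkbie, Nfkbiz and Tnfaip3 and by lower Tnip1 and Bcl3. Nfkbia read 84.7 and 81.7 TPM with digitonin, against 35.4 and 33.4 TPM without. Nfkbiz read 17.7 and 18.5 TPM with digitonin, against 4.06 and 3.31 TPM without. Tnfaip3 read 4.50 and 4.41 TPM with digitonin, against 0.910 and 1.17 TPM without. None of these groups overlapped, and the TPM ratios were 2.42 for Nfkbia, 4.92 for Nfkbiz and 4.28 for Tnfaip3. On the log2 scale Nfkbia rose by 1.25 (limma adjusted p = 4.7e-18), Nfkbiz by 2.03 (limma adjusted p = 5.34e-14), Tnfaip3 by 1.42 and Nfkbie by 0.37 (limma adjusted p = 0.0245). Only 1 untreated library of Tnfaip3 reached 1 TPM, so this gene entered the test through the treated libraries, where it is high. It is therefore given without a p. Bcl3 averaged 1.04 TPM with digitonin and 2.20 TPM without and fell by 0.64, and Tnip1 fell by 0.32 (limma adjusted p = 0.000206). Bcl3 read 0.978 and 1.10 TPM with digitonin, so it entered the test through the untreated libraries, where it is higher, and is given without a p. The 4 members higher, which include Tnfaip3, stand beside 39.3% of genes (31.3% after centring). The 2 lower, which include Bcl3, stand beside 34.2% (46.3% after centring). Bcl3 lost its call on leaving out replicate 1 without digitonin. Nfkbie lost its call without digitonin replicate 2, without untreated replicate 2 and after centring (log2 difference 0.22, limma adjusted p = 0.163).

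In LLC carcinoma cells with the MLKL construct 6 of 7 members were higher with AP20187, beside 5.48% of genes (5.18% after centring) and with 0 members lower, beside 2.08% (3.24% after centring). Nfkbia read 128 and 133 TPM with AP20187, against 43.2 and 43.7 TPM untreated. Tnfaip3 read 9.38 and 10.3 TPM with AP20187, against 2.20 and 2.53 TPM untreated. Bcl3, whose product acts in the nucleus as a co-regulator, read 5.99 and 5.68 TPM with AP20187, against 1.97 and 2.81 TPM untreated. In each of these the treated libraries lay above the untreated ones. Nfkbia rose by 1.57 (limma adjusted p = 4.66e-10), Nfkbiz by 1.58 (limma adjusted p = 8.26e-08), Tnfaip3 by 1.69 (limma adjusted p = 4.77e-07) and Bcl3 by 1.02 (limma adjusted p = 0.00167). Nfkbie averaged 3.59 TPM with AP20187 and 1.49 TPM untreated and rose by 0.88 (limma adjusted p = 0.00129). Nfkbib rose by 0.33 (limma adjusted p = 0.00496), a call that was lost without the AP20187 library in which it read 46.8 TPM. Both AP20187 libraries carry the number 2. Tnip1 averaged 17.5 TPM with AP20187 and 16 TPM untreated, with limma adjusted p = 0.158. The samples hold no parental LLC group with AP20187.

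With the gasdermin D construct LLC cells showed a different order of the same genes, led by Nfkbiz. Nfkbiz read 48.4 and 46.7 TPM with 4OHT, against 5.90 and 5.86 TPM untreated, a ratio of 8.08. Nfkbib read 73.1 and 78.7 TPM with 4OHT, against 34.2 and 35.6 TPM untreated, a ratio of 2.17. Nfkbia read 45.0 and 43.0 TPM with 4OHT, against 33.9 and 33.6 TPM untreated, a ratio of 1.30. All 3 genes were higher without overlap, and Nfkbia had the lowest ratio of the 3. On the log2 scale Nfkbiz rose by 2.82 (limma adjusted p = 1.35e-11), Nfkbib by 1.10 (limma adjusted p = 5.22e-09), Tnfaip3 by 0.47 (limma adjusted p = 0.000577) and Nfkbia by 0.37 (limma adjusted p = 3.78e-06). Tnip1 read 8.65 and 8.66 TPM with 4OHT, against 13.1 and 13.7 TPM untreated, and fell by 0.57 (limma adjusted p = 2.89e-07). Nfkbie averaged 0.911 TPM with 4OHT and 1.83 TPM untreated and fell by 0.56. It is given without a p because it entered the test through the untreated libraries, where it is higher. The 4 members higher stand beside 27.9% of genes and the 2 lower, which include Nfkbie, beside 54.0%, with a median over all genes of -0.25.

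LLC parental cells with 4OHT serve as the control for the drug, and 0 of 7 members passed in limma there, with log2 differences of -0.13 to 0.28, while 0.819% of genes were higher (0.486% after centring) and 0.0450% lower (0.198% after centring). Nfkbia read 51.4 and 53.6 TPM with 4OHT, against 54.3 and 53.3 TPM untreated, and Nfkbiz read 6.49 and 5.80 TPM with 4OHT, against 6.70 and 6.03 TPM untreated, so the libraries overlapped. The response of GSDMD cells minus that of parental cells was 2.86 for Nfkbiz (limma adjusted p = 1.07e-09), 0.99 for Nfkbib (limma adjusted p = 7.38e-07), 0.60 for Tnfaip3 (limma adjusted p = 0.00149) and 0.41 for Nfkbia (limma adjusted p = 5.72e-05). It was -0.66 for Tnip1 (limma adjusted p = 3.32e-06) and -0.55 for Nfkbie (limma adjusted p = 0.0164). These are 4 members higher, beside 22.4% of genes (30.9% after centring), and 2 lower, beside 49.4% (38.6% after centring), with a median of -0.28. The Nfkbie difference was -0.36 and no longer past the threshold after centring, and was lost in 4 of 8 fits that left out 1 library (adjusted p up to 0.0724).

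In the libraries labelled LLC digitonin, 5 of 7 members were higher, beside 20.3% of genes, and 0 lower, beside 32.2%. Nfkbia read 90.7 and 90.0 TPM with digitonin, against 36.0 and 33.2 TPM without, and rose by 1.36 (limma adjusted p = 3.33e-10). Nfkbiz averaged 22.3 TPM with digitonin and 5.14 TPM without (1.93, limma adjusted p = 1.97e-09), and Tnfaip3 6.48 TPM with digitonin and 1.84 TPM without (1.40, limma adjusted p = 2.91e-07). Bcl3 read 3.32 and 4.07 TPM with digitonin, against 1.78 and 2.07 TPM without, and rose by 0.68 (limma adjusted p = 0.00334). Nfkbib rose by 0.38 (limma adjusted p = 0.000252). The Gsdmd level of these libraries, which departs from their label, was close with and without digitonin, and its part in the result was not tested.

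**Figure D3:**
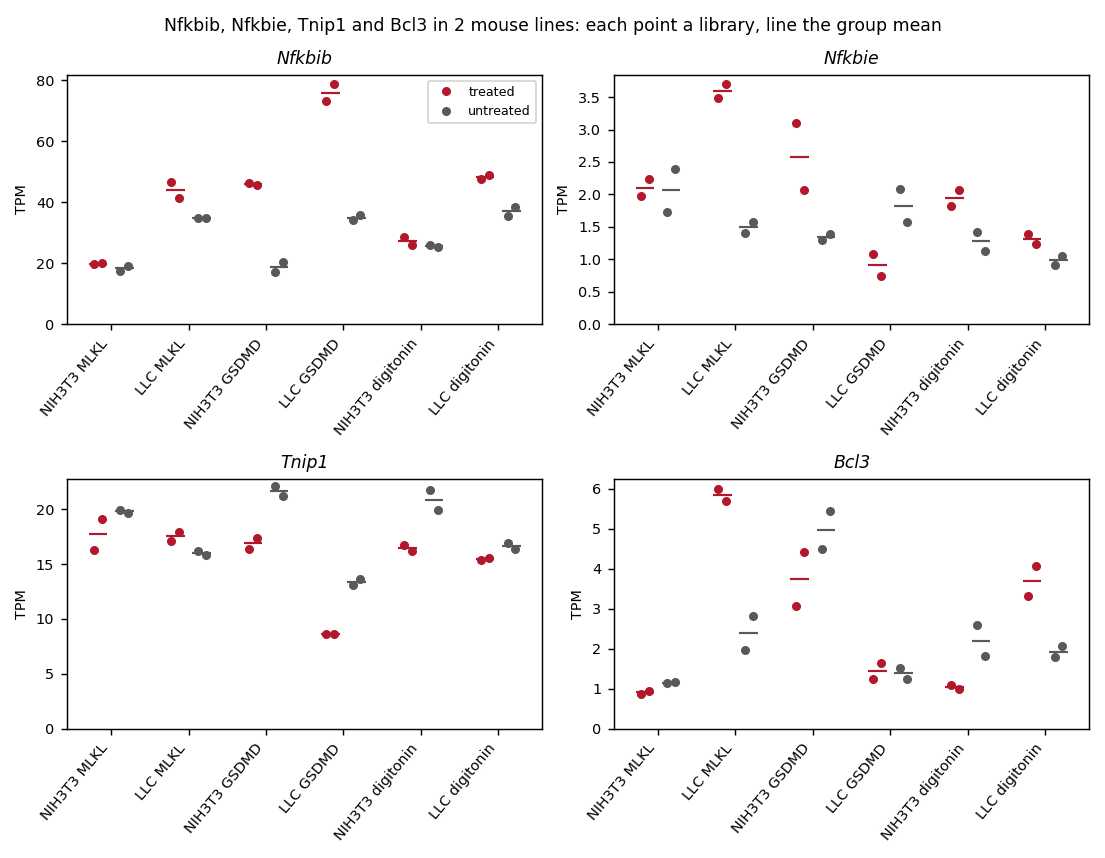
TPM of Nfkbib, Nfkbie, Tnip1 and Bcl3 in 6 arms of NIH3T3 and LLC cells, treated libraries red on the left and untreated ones grey on the right, each line a group mean. Nfkbib stands highest in LLC GSDMD cells with 4OHT at 73.1 and 78.7 TPM, Tnip1 lowest there at 8.65 and 8.66 TPM, and Bcl3 is higher in treated LLC MLKL and lower in digitonin-treated NIH3T3 libraries.

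The size of the response was set against the line it was measured in, by a joint model of all 51 mouse libraries added after the data had been seen. With MLKL, LLC cells were compared with the NIH3T3 MLKL cells labelled neither siCTR nor noko. LLC cells had smaller rises of Nfkbiz (difference -1.91, limma adjusted p = 2e-12), Tnfaip3 (-1.40, limma adjusted p = 5.57e-09) and Nfkbia (-0.82, limma adjusted p = 1.85e-13). They had larger values of Bcl3 (1.2, limma adjusted p = 0.000662), Nfkbie (0.86, limma adjusted p = 0.0023) and Tnip1 (0.28, limma adjusted p = 0.026). Of all genes 5.87% were higher and 7.05% lower in this difference. With gasdermin D, Nfkbiz rose more in LLC cells (1.5, limma adjusted p = 6.38e-11), whereas Nfkbia (-1.13, limma adjusted p = 2.22e-17), Tnfaip3 (-1.27, limma adjusted p = 3.52e-09), Nfkbie (-1.16, limma adjusted p = 5.93e-06) and Tnip1 (-0.23, limma adjusted p = 0.0224) had lower values there, beside 33.5% of genes higher and 27.0% lower (27.6% and 33.7% after centring). With digitonin the inducible genes gave no difference past the threshold: 0.11 for Nfkbia (interval 0.01 to 0.21), -0.10 for Nfkbiz (interval -0.37 to 0.16) and -0.02 for Tnfaip3 (interval -0.30 to 0.25). Bcl3 (1.32, limma adjusted p = 2.73e-05) and Tnip1 (0.22, limma adjusted p = 0.0285) differed, beside 19.4% of genes higher (30.2% after centring) and 36.0% lower (28.4% after centring). After centring Nfkbia (0.24) and Nfkbib (0.42) also passed for digitonin. The Tnip1 differences were lost on leaving out 1 library in 6 of 8 fits for MLKL, 3 of 8 for gasdermin D and 5 of 8 for digitonin. All 3 differences use libraries already described above, and the digitonin difference includes those whose Gsdmd departs from the label.

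Digitonin separated the 2 human lines. In BxPC3 cells 6 of 7 members were higher and 1 lower. NFKBIA read 871 and 864 TPM with digitonin, against 53.6 and 56.6 TPM untreated, and TNFAIP3 331 and 341 TPM with digitonin, against 27.0 and 27.6 TPM untreated. BCL3 read 200 and 185 TPM with digitonin, against 30.05 and 31.4 TPM untreated. The treated libraries of these genes stood many times above the untreated ones, with TPM ratios of 15.7 for NFKBIA, 12.3 for TNFAIP3 and 6.26 for BCL3. On the log2 scale NFKBIA rose by 3.95 (limma adjusted p = 2.33e-08), TNFAIP3 by 3.57 (limma adjusted p = 2.17e-08), NFKBIZ by 2.69 (limma adjusted p = 1.69e-07) and BCL3 by 2.61 (limma adjusted p = 9.3e-08). NFKBIE rose by 1.92 (limma adjusted p = 4.89e-07) and NFKBIB by 1.25 (limma adjusted p = 1.08e-05). TNIP1 read 61.4 and 64.4 TPM with digitonin, against 68.6 and 73.6 TPM untreated, and its log2 difference was -0.17 (limma adjusted p = 0.0321). The median over all genes was -0.37, and TNIP1 turned to 0.25 after centring, where it passed the threshold as higher (adjusted p = 0.0042), and to 0.10 after quantile scaling, where it did not pass (adjusted p = 0.133). The lower call was also lost without digitonin replicate 1 (adjusted p = 0.137) or untreated replicate 2 (0.17). Higher genes made up 23.7% (41.3% after centring) and lower ones 56.9% (36.9% after centring).

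In HT29 cells TNFAIP3 led the response, and the other members that rose did so by under 0.5 on the log2 scale. TNFAIP3 read 14.9 and 15.2 TPM with digitonin, against 2.43 and 2.14 TPM untreated, a ratio of 6.59 and a log2 rise of 2.29 (limma adjusted p = 2.47e-07). NFKBIA read 54.9 and 56.5 TPM with digitonin, against 49.9 and 44.1 TPM untreated, a ratio of 1.18 and a log2 rise of 0.24 (limma adjusted p = 0.0106) that was lost without digitonin replicate 2 (adjusted p = 0.0563). NFKBIZ read 12 and 10.7 TPM with digitonin, against 11.2 and 12.4 TPM untreated, and these libraries overlapped. NFKBIB rose by 0.39 (limma adjusted p = 0.00679), TNIP1 by 0.43 (limma adjusted p = 0.000827) and BCL3 by 0.34 (limma adjusted p = 0.00228). NFKBIE did not pass (0.12, limma adjusted p = 0.181), but did after centring (0.29). Hence 5 of 7 members were higher, beside 16.5% of genes (27.6% after centring), and 0 lower, beside 44.0% (28.9% after centring), with a median over all genes of -0.16.

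**Figure D4:**
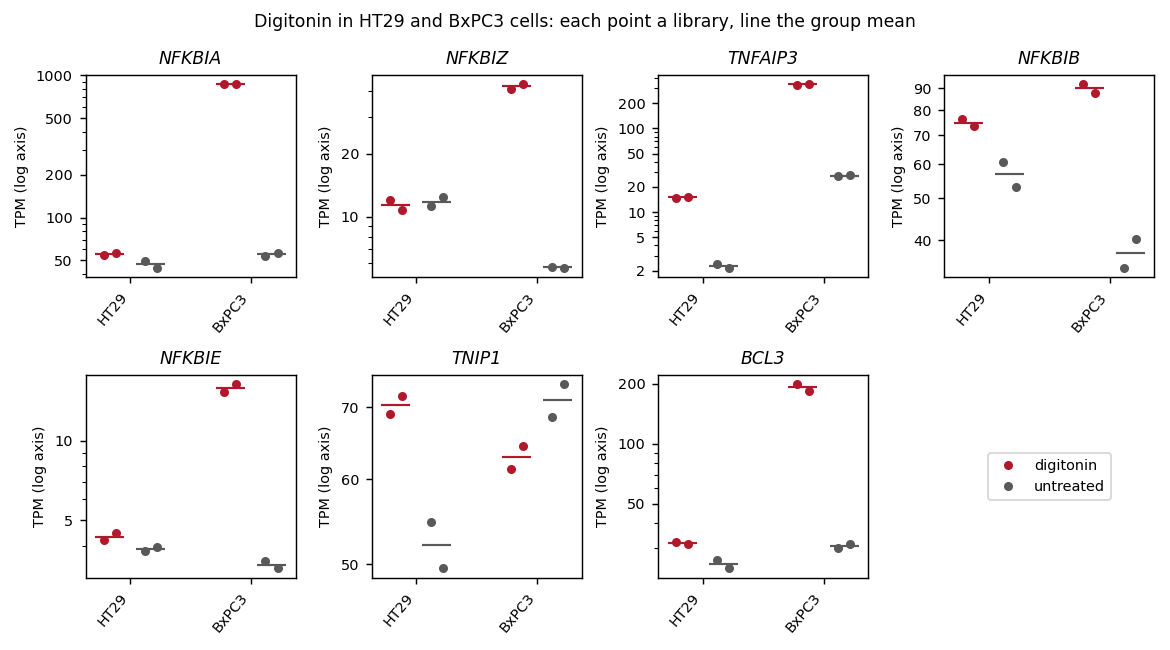
TPM on log axes of the 7 members in HT29 and BxPC3 cells with digitonin (red, left) and untreated (grey, right), each point a library and each line a group mean. NFKBIA stands at 871 and 864 TPM in BxPC3 and at 54.9 and 56.5 TPM in HT29 cells with digitonin, while untreated levels of the lines are close for NFKBIA and apart for TNFAIP3.

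By the test of the difference every member responded differently in the 2 human lines. HT29 minus BxPC3 was -3.71 for NFKBIA (limma adjusted p = 1.29e-06), -2.73 for NFKBIZ (limma adjusted p = 6.12e-06), -2.26 for BCL3 (limma adjusted p = 5.84e-06), -1.80 for NFKBIE (limma adjusted p = 1.61e-05), -1.28 for TNFAIP3 (limma adjusted p = 2.25e-05) and -0.86 for NFKBIB (limma adjusted p = 0.00113). TNIP1 differed the other way, by 0.60 (limma adjusted p = 0.001). Of all genes 20.6% were lower (30.4% after centring) and 43.5% higher (29.3% after centring), with a median of 0.23.

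Across the 8 mouse arms that opened the membrane of cells in complete medium without a further manipulation of PKC or p65, the members fell into 3 kinds. Nfkbia, Nfkbiz and Tnfaip3 were higher in 8 of 8 arms, with TPM ratios of 1.30 to 7.06, 2.78 to 14.5 and 1.63 to 19.5. For Tnfaip3 this includes NIH3T3 MLKL and NIH3T3 digitonin cells, where it entered the test through the treated libraries. Of all genes, 5.48% to 39.3% were higher and 2.08% to 58.6% lower in a single arm, and the share called in every arm was not counted. The NIH3T3 MLKL, siCTR and noko arms gave the same drug to MLKL cells of the same line, so the 8 arms are not separate settings. Nfkbib was higher in 6 of 8 and lower in 0, with ratios of 1.07 to 2.45. Nfkbie was higher in 3 and lower in 1, Bcl3 higher in 2 and lower in 1, and Tnip1 higher in 0 by limma and lower in 3, with ratios of 0.648 to 1.10. The lower call of Tnip1 in NIH3T3 GSDMD cells was lost after centring (-0.07). Nfkbie in LLC GSDMD cells and Bcl3 in NIH3T3 digitonin cells, both called lower, entered the test through the untreated libraries. At an unadjusted p under 0.05 Tnip1 was higher in 1 arm, LLC MLKL, and Nfkbib lower in 0. Without the libraries labelled LLC digitonin, the counts were 7 of 7 for Nfkbia, Nfkbiz and Tnfaip3, 5 of 7 for Nfkbib, 3 higher and 1 lower for Nfkbie, and 1 higher and 1 lower for Bcl3. Over all 13 mouse arms, controls and manipulated cells included, Nfkbiz was higher in 11 and lower in 0, Nfkbia higher in 10 and lower in 2, and Tnfaip3, tested in 12, higher in 8 and lower in 1. Of all genes, 0.0174% to 39.3% were higher and 0.0450% to 58.6% lower in a single one of these arms. The lower call of Tnfaip3 came from p65ko cells, where it entered through the untreated libraries, and was lost after centring (-0.09). The lower call of Nfkbia in parental NIH3T3 cells was also lost after centring.

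**Figure D5:**
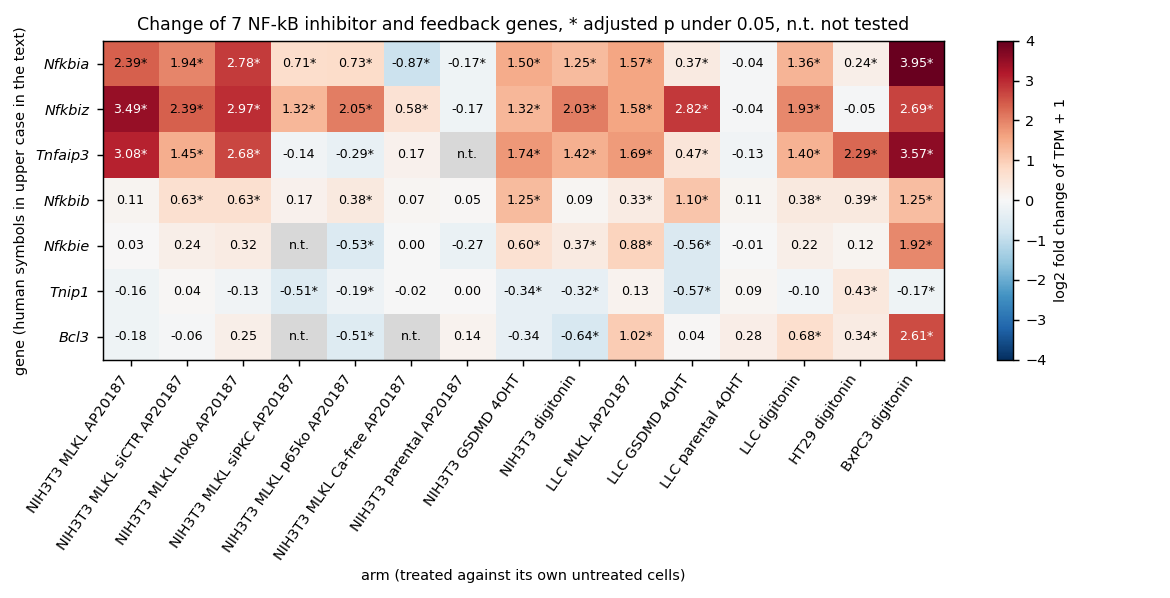
Log2 fold change of TPM + 1 of the 7 members (down) in 15 arms (across), treated against untreated cells of the same kind, with an asterisk where the adjusted p is under 0.05 and n.t. where a gene was not tested. Nfkbia, Nfkbiz and Tnfaip3 form the high rows, with 2.39, 3.49 and 3.08 in NIH3T3 MLKL cells and 3.95, 2.69 and 3.57 in BxPC3 cells, and Tnip1 stays near or below 0 in the mouse arms.

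As a description over the 13 mouse arms, which share libraries and lines and whose values move with the medians given above, the log2 fold changes of Nfkbia and Tnfaip3 had r = 0.872, those of Nfkbia and Nfkbiz r = 0.762, and those of Nfkbib and Tnip1 r = -0.433. All 13 arms enter these values, also those in which a gene was too low to be tested (1 arm each for Tnfaip3 and Nfkbie and 2 for Bcl3), and over the 12 arms where both were tested Nfkbia and Tnfaip3 had r = 0.857. Among the 9858 genes tested in every arm, the genes most like Nfkbia were Zc3h12a (r = 0.907), Mark4 (0.858) and Junb (0.824). Those most like Nfkbiz were Ier2 (0.912), Zfp36l1 (0.903) and Brsk1 (0.899). Those most like Tnfaip3 were Nfkbia (0.872), 1700120K04Rik (0.795) and Zc3h12a (0.761). Those most like Nfkbib were Rnh1 (0.914), Atp6v1e1 (0.895) and Cd63 (0.890), and those most like Tnip1 were Mrpl38 (0.925), Echdc3 (0.914) and Gnb2 (0.914). For Nfkbie they were Slc11a2 (0.769), Scly (0.765) and Ptprn (0.705), and for Bcl3 Mad2l2 (0.868), Hotairm1 (0.864) and Gm8580 (0.805).

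Other genes of the pathway were read through 4 lists, and their counts stand beside the shares of all genes called. A gene was tested where it reached 1 TPM in 2 libraries, which an induced gene can do through the treated libraries alone, so the counts describe the genes tested. In NIH3T3 MLKL cells with AP20187, where 15.8% of all genes were higher and 16.5% lower, NF-kB target genes were higher in 10 of 14 tested (of 18 listed) and lower in 1, among them Cxcl1 and Ptgs2 (log2 rises of 4.84 and 4.06), with a list median of 0.65 beside -0.02 over all genes. The NF-kB subunits and IKK kinases were higher in 4 of 8 and lower in 0, and at an unadjusted p under 0.05 lower in 2. The receptor adaptors and kinases were higher in 4 of 14, above the 15.8% of all genes, and lower in 2, near the share of all genes. The other negative regulators were higher in 2 of 10 and lower in 1, counts near the shares over all genes, with Zc3h12a, the RNase regnase-1, rising by 1.74.

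The target genes were not called alike in the other mouse arms. They were higher in 10 of 14 and lower in 2 in siCTR cells (all genes 13.7% higher and 51.8% lower), and higher in 11 of 13 and lower in 1 in noko cells (10.6% and 55.5%). In NIH3T3 GSDMD cells with 4OHT they were higher in 13 of 15 and lower in 1 (20.0% and 58.6%), and with digitonin in NIH3T3 cells higher in 9 of 14 and lower in 2 (39.3% and 34.2%). In LLC MLKL cells they were higher in 8 of 11 and lower in 0 by limma, also at an unadjusted p under 0.05 (5.48% and 2.08%). In LLC GSDMD cells they were higher in 7 of 11 and lower in 4 (27.9% and 54.0%). In the libraries labelled LLC digitonin they were split, with 5 of 10 higher and 4 lower (20.3% and 32.2%) and a list median of 0.08 beside -0.06 over all genes. They were higher in 5 of 13 and lower in 4 in p65ko cells (8.99% and 50.4%), and higher in 4 of 10 and lower in 2 in the siPKC library (10.5% and 37.5%). Without Ca2+ they were higher in 2 of 11 and lower in 0 by limma, and at an unadjusted p under 0.05 lower in 3 (2.27% and 3.42%). With the drug alone they were higher in 0 by limma, also at an unadjusted p under 0.05, and lower in 3 of 9 in NIH3T3 parental cells (0.0174% and 0.287%) and in 1 of 8 in LLC parental cells (0.819% and 0.0450%).

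Differences between responses were read in the same lists. The p65ko response minus the noko response was lower in 9 of 14 targets and higher in 1, with a list median of -1.06 beside 0.03 over all genes, and lower in 5 of 8 subunits, 1 of 14 adaptors and 1 of 10 other negative regulators, where 1.76% of all genes were lower and 2.34% higher. Cxcl1 lay at -3.87 and Nfkb1 at -0.84 in that difference, beside -2.97 for Tnfaip3, and Csf2 was the target that was higher, named after its value was seen. The Ca2+-free minus complete response was lower in 9 of 14 targets and 4 of 8 subunits, where 11.1% of all genes were lower, and higher in 0 targets by limma, also at an unadjusted p under 0.05, and in 1 subunit, where 10.8% were higher. The siPKC minus siCTR response was lower in 9 of 14 targets and 5 of 8 subunits, where 3.33% of all genes were lower. In BxPC3 cells the targets were higher in 13 of 16 and lower in 3, where 23.7% of all genes were higher and 56.9% lower. In HT29 cells they were higher in 5 of 9 and lower in 1, where 16.5% were higher and 44.0% lower.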

How the data were processed

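The deposited tables hold TPM, a length-corrected relative abundance, for each gene and library. Per the labels, polyA-selected RNA was sequenced, and per the submitters' processing notes Salmon and the builds mm10 (mouse) and hg19 (human) were used. For the Salmon version, index and trimming, nothing is given in the sources used here. The unit was read from the values, since each library has about the same total. The members and the gene lists were chosen with earlier results of these data known, and support nothing by themselves. Values were analysed as log2(TPM + 1) with limma 3.58.1 (trended variance, R 4.3.3), in 1 model per line over all its groups, with the human lines in 1 model. Testing required 1 TPM or more in 2 or more of a comparison's libraries. P-values were adjusted by Benjamini-Hochberg over all genes tested, with a threshold of 0.05, and intervals are 95%. There were 27 comparisons: 15 treatment arms, 6 differences between responses, 3 differences between untreated cells and 3 differences between LLC and NIH3T3 responses that were added after the data had been seen. A count model was planned only if counts were found, and the tables hold TPM, which keep no depth. Values were named for the 7 members in every comparison, for at most 4 genes of each of 4 pathway lists (NF-kB subunits and IKK, receptor adaptors and kinases, other negative regulators, NF-kB target genes) by the smallest p, and for the 3 genes most like each member. The model was tested on simulated data. Alternatives were a pseudocount of 0.1, quantile scaling, centring on the median, no filter, the libraries of the comparison alone, the replicate number as a block and leaving out each library; leaving out the libraries labelled LLC digitonin was added after the data had been seen. Promoter sequences come from RefSeq on GRCm38.p6, and figures were drawn with matplotlib 3.10.9 in Python 3.11.15.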

Additional observations from a re-analysis of the deposited data

Results flagged for a closer look

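The differences between lines below passed the test of the difference itself (limma, Benjamini-Hochberg adjusted p from 2.22e-17 for Nfkbia to 0.0285 for Tnip1), and are flagged for that reason, with no explanation weighed. For digitonin, the HT29 response minus the BxPC3 response was -3.71 for NFKBIA, -0.86 for NFKBIB, -1.80 for NFKBIE, -2.73 for NFKBIZ, -1.28 for TNFAIP3, -2.26 for BCL3 and 0.60 for TNIP1 on the log2(TPM + 1) scale. For the MLKL construct, the LLC response minus the NIH3T3 response was -0.82 for Nfkbia, 0.86 for Nfkbie, -1.91 for Nfkbiz, -1.40 for Tnfaip3, 0.28 for Tnip1 and 1.2 for Bcl3. The NIH3T3 MLKL cells used were those labelled neither siCTR nor noko, and Tnfaip3 rose less in siCTR cells than in LLC cells. For the gasdermin D construct the LLC response minus the NIH3T3 response was -1.13 for Nfkbia, -1.16 for Nfkbie, 1.5 for Nfkbiz, -1.27 for Tnfaip3 and -0.23 for Tnip1. For digitonin it was 1.32 for Bcl3 and 0.22 for Tnip1. The direction of the Nfkbiz difference was thus opposite between the 2 constructs.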

How the results depend on the processing

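TPM keep no depth, each group has 1 or 2 libraries, and the cause of the changes below was not tested. Of 184 member values, 181 kept their direction and side of the threshold with a pseudocount of 0.1, 163 with quantile scaling, 165 with median centring, 180 without the filter and 170 with the libraries of the comparison alone, and so did 895 of 956 values with 1 library left out and 42 of 42 without the libraries labelled LLC digitonin. Tnip1 turned positive in p65ko cells (0.047 with quantile scaling, 0.018 with centring, -0.19 as reported), and TNIP1 turned positive in BxPC3 cells (0.10 with quantile scaling, 0.25 with centring, past the threshold as higher, and -0.17 as reported).

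The number of members past the threshold changed as follows. In p65ko cells it was 3 with quantile scaling or centring, against 7 as reported, and 4 to 6 with 1 library left out. In parental NIH3T3 cells it was 0 with quantile scaling, centring, the libraries of the comparison alone or the replicate block, against 1, and 0 to 1 with 1 library left out. In Ca2+-free cells it was 1 with the libraries of the comparison alone, against 2. For siPKC minus siCTR it was 2 with the libraries of the comparison alone, against 4. For untreated p65ko minus noko it was 1 with a pseudocount of 0.1, centring, no filter or the replicate block, against 2, and as low as 1 with 1 library left out. For untreated siPKC minus siCTR it was 1 with no filter and 0 with the libraries of the comparison alone, against 3, and 0 to 2 with 1 library left out. For LLC minus NIH3T3 digitonin it was 4 with quantile scaling or centring, against 2, and 1 to 4 with 1 library left out. In NIH3T3 MLKL cells it was 2 to 3 with 1 library left out. Bcl3 was higher in 1 mouse arm without the libraries labelled LLC digitonin, against 2.

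Samples of equal replicate number were compared in 13 arms, where their deviations correlated at -0.05 to 0.13, with 1 arm over 0.1, so the numbers were not taken to pair them. With the replicate block 163 of 170 member values kept direction and call, and Bcl3 of p65ko minus noko passed (adjusted p = 0.0391). No paired analysis was possible for LLC MLKL cells because both AP20187 libraries carry the number 2, and the only siPKC AP20187 library could not be left out.

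Over all genes, the libraries of the comparison alone gave 2087 calls in NIH3T3 MLKL cells against 3757, 75 in Ca2+-free cells against 659, 5 in parental NIH3T3 cells against 35, 27 in LLC parental cells against 96 (52 with the replicate block), 54 for siPKC minus siCTR against 969, 768 for p65ko minus noko against 501, 3065 for untreated siPKC minus siCTR against 5261 and 926 for LLC minus NIH3T3 MLKL against 1599. With 1 library left out the lowest counts were 2489 in NIH3T3 MLKL, 273 in Ca2+-free, 9 in parental NIH3T3, 373 in LLC MLKL (844 as reported) and 16 in LLC parental cells, 527 for siPKC minus siCTR and 277 for p65ko minus noko.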
